A study of Mus musculus with 24 samples.

Results

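The leukocyte integrins described here are the products of 5 genes, Itgax, Itgam, Itgal, Itgb2 and Itga4, which were picked by symbol from the 16730 genes counted in epididymal white adipose tissue (eWAT) of 24 male mice. The tissue was labelled gWAT, for gonadal fat, and came from the epididymal fat pads. All mice carried loxP-flanked (floxed) alleles of Lama4, the gene for the laminin α4 chain of basement membranes. The Lama4 AKO mice also carried Cre recombinase driven by the adiponectin promoter, which is active in adipocytes, so the design leaves Lama4 intact in leukocytes and vessels. The Lama4 fl/fl controls were littermates without Cre, labelled wild type (floxed). Mice of each genotype ate either chow (diet 5015) or a high-fat diet (HFD) with 45% of energy from fat for 20 weeks, and tissue was taken at 24 to 26 weeks of age. By the paper's legends, chow was fed from weaning to 24 weeks of age and HFD from 6 to 26 weeks. Age at collection thus went with diet, so diet and age cannot be told apart in the comparisons between diets. Each combination of genotype and diet was a group of 6 mice, 4 groups in all. Each mouse gave 1 sequencing library.

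Integrins are adhesion receptors made of 1 α and 1 β subunit. On leukocytes, the β2 subunit encoded by Itgb2 (CD18) pairs with αL (Itgal, CD11a) to form LFA-1, with αM (Itgam, CD11b) to form Mac-1, the complement receptor that binds iC3b, and with αX (Itgax, CD11c). The α4 subunit (Itga4, CD49d) pairs instead with β1 to form VLA-4, a receptor for VCAM-1 and fibronectin, or with β7. Chemokine and antigen-receptor signals switch these receptors to their binding state from inside the cell, and ligand binding in turn signals back through Src-family and Syk kinases. In adipose tissue of obese mice, CD11c is widely used to mark macrophages that accumulate around dying adipocytes, while CD11b is carried by most myeloid cells and CD11a by most lymphocytes.

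On the GRCm38 genome, 3 of the 4 α-subunit genes lay on chromosome 7. Itgal (ENSMUSG00000030830) spanned chr7:127296260-127335138. Itgam (ENSMUSG00000030786) spanned chr7:128062640-128118491, and Itgax (ENSMUSG00000030789) followed at chr7:128129547-128150657, all 3 on the plus strand. The gap from Itgam to Itgax was 11055 bases with no protein-coding gene in between, while 727501 bases and 38 protein-coding genes separated Itgal from Itgam. Itgb2 (ENSMUSG00000000290) lay at chr10:77530252-77565708 and Itga4 (ENSMUSG00000027009) at chr2:79255426-79333123. Itgam overlapped the gene model Gm49368 on its own strand, so reads in the shared stretch may belong to either gene. Itga4 overlapped Cerkl on the other strand, where reads are told apart only if counting kept the strand. Promoters are shown for the 3 genes that had a matched sequence, Itgam, Itgax and Itga4. Each sequence is the 250 bases before the start site from RefSeq (GRCm38.p6), at chr7:128062390-128062639, chr7:128129300-128129549 and chr2:79255176-79255425, plus strand, with the PU box (GAGGAA, or TTCCTC on the other strand), a core that the myeloid factor PU.1 is known to bind, in capitals.
Itgam promoter: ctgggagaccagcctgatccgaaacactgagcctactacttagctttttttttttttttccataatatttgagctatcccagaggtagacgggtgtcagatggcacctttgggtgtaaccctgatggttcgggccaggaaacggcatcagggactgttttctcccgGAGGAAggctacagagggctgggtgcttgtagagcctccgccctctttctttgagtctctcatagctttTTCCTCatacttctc
Itgax promoter: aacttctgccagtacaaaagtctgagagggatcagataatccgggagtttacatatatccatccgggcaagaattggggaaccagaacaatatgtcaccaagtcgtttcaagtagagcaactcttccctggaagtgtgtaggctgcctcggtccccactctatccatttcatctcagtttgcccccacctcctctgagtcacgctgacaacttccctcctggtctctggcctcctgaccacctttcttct
Itga4 promoter: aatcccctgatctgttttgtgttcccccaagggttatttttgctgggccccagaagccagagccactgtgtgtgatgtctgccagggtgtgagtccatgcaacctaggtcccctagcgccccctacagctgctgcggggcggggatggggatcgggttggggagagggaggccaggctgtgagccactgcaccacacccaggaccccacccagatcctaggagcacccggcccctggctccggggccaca
The Itgam window held the PU box at 2 places, 84 and 15 bases before the start site, the second on the minus strand. The Itgax and Itga4 windows held none. Of 32851 mouse promoters of this length, 23.3% held a PU box on either strand. The letters TGTGGT of the RUNX core (ACCACA on the other strand) were found 60 bases before the Itga4 start and in neither of the other windows, against 14% of all promoters, and TATAAA was on neither strand of the 3 windows, against 12.4%. G and C made up 64% of the Itga4 window, 49.6% of the Itgam window and 50% of the Itgax window, with a median of 52.4% over all promoters. Sequences were matched for 3 of the 5 genes, and those of Itgal and Itgb2 were not used here.

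Libraries held 5579590 to 18764516 counts. Lama4, the targeted gene, was not lower on chow in the libraries labelled Lama4 AKO (median 113 CPM, that is counts scaled to a common library size, range 64.2 to 133) than in Lama4 fl/fl (91.7, 41.2 to 196), and on HFD the medians were 44.3 (36.4 to 92.5) and 78.7 (32.4 to 135) with overlapping ranges. The genotype difference had an adjusted p of 0.98 on chow and 0.347 on HFD (edgeR quasi-likelihood test), so the counts do not separate the genotypes by this gene. The libraries hold tags of the 3′ ends of transcripts, outside the floxed exon, so these counts do not read its loss directly. By quantitative PCR the paper reported lower Lama4 in eWAT of chow-fed Lama4 AKO mice, a difference not seen in the chow counts here. The reason was not tested, and directions below follow the labels. Adipocyte, pan-leukocyte and macrophage markers were present in every group, and of 8 epididymis or testis markers 2 were in the table and neither passed the filter on low counts. Their summed level was 17.6 CPM in chow-fed Lama4 fl/fl replicate 4, 3.24 in chow-fed Lama4 AKO replicate 5 and at most 0.526 in the other libraries. On the first principal component (45.8% of variance) the lowest scores were those of chow-fed Lama4 fl/fl replicate 1 and HFD-fed Lama4 fl/fl replicate 4, at -91.8 and -76.1. The former had the lowest summed pan-leukocyte markers of its group, 354 CPM against a median of 1820, and the highest summed adipocyte markers, 21800 against 7140. In the latter these sums were 580 against 1980 and 16300 against 4950.

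The transcripts of the β2 subunit and of its myeloid partners αX and αM were at their highest medians in HFD-fed mice labelled Lama4 AKO and at their lowest in chow-fed mice labelled Lama4 AKO. Itgax, the CD11c subunit, ranged from 21 to 281 CPM in chow-fed Lama4 fl/fl mice with a median of 174. In chow-fed Lama4 AKO mice it ranged from 39.8 to 284 with a median of 101, in HFD-fed Lama4 fl/fl mice from 46.8 to 423 with a median of 216, and in HFD-fed Lama4 AKO mice from 215 to 461 with a median of 364. Every HFD-fed Lama4 AKO mouse lay above the median of the chow-fed Lama4 AKO mice, but the ranges of all 4 groups overlapped. The spread was unequal as well, since the highest mouse exceeded the lowest 2.15-fold in HFD-fed Lama4 AKO mice and between 7.13-fold and 13.4-fold in the other groups.

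Itgb2, the β2 subunit that all 3 of these α subunits need to reach the cell surface, followed the same order. Its median was 240 CPM (38.4 to 454) in chow-fed Lama4 fl/fl mice, 137 (73.6 to 483) in chow-fed Lama4 AKO mice, 283 (69.4 to 565) in HFD-fed Lama4 fl/fl mice and 631 (266 to 1050) in HFD-fed Lama4 AKO mice. The 3 highest values among HFD-fed Lama4 AKO mice exceeded every other mouse of the study, as the plot of levels by mouse shows, while the lowest lay inside the range of each other group. Itgam, the αM subunit of the complement receptor Mac-1, had medians of 88.7 CPM (20.1 to 156), 66.2 (36.8 to 167), 112 (36.7 to 188) and 186 (93.6 to 275) in the same order of groups. Its HFD-fed Lama4 AKO values fell into 4 higher and 2 lower mice, and again no pair of groups was free of overlap.

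The medians of the lymphocyte-associated αL and of the α4 subunit spanned a smaller fold range across the groups. Itgal, the LFA-1 α subunit, had a median of 6.92 CPM (3.3 to 18.9) in chow-fed Lama4 fl/fl mice, 6.81 (5.93 to 36.5) in chow-fed Lama4 AKO mice, 11.2 (3.95 to 25.5) in HFD-fed Lama4 fl/fl mice and 13.6 (5.19 to 19.8) in HFD-fed Lama4 AKO mice. The highest value of all 24 mice was in chow-fed Lama4 AKO replicate 6, at 36.5 CPM, which also had the highest summed T cell markers of its group, 243 CPM against a median of 35.2. Itgal was the least counted of the 5 genes, with 32 to 542 counts per library, so its values carry more counting error than the others. Itga4, the VLA-4 α subunit, had medians of 35.8 CPM (14.9 to 40.2), 27.5 (16.7 to 63.3), 40.2 (13.1 to 75.1) and 41.5 (30.6 to 57), and the ranges of all groups overlapped.

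**Figure D1:**
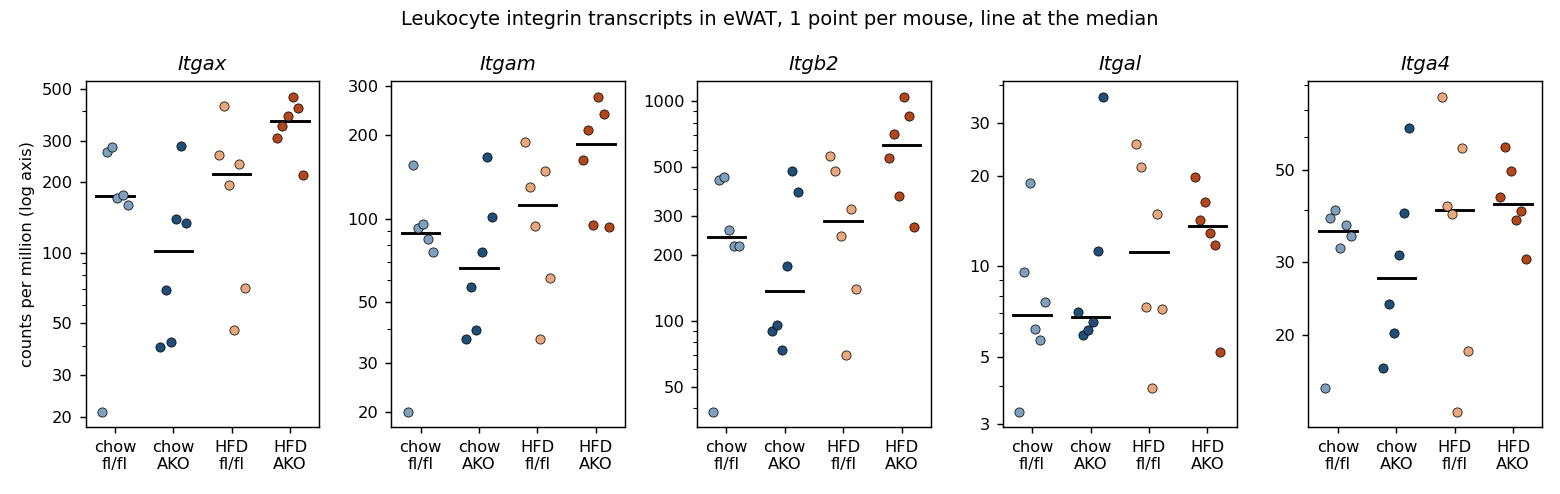
CPM of each leukocyte integrin gene on a log axis, with 1 point per mouse and a line at the median of each of the 4 groups of diet and genotype (n = 6 each). Medians of HFD-fed Lama4 AKO mice are above those of chow-fed Lama4 AKO mice for Itgax (101 to 364), Itgb2 (137 to 631) and Itgam (66.2 to 186), and ranges overlap in every panel.

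For all 5 genes the medians ran in 1 order, with chow-fed Lama4 AKO lowest, chow-fed Lama4 fl/fl next, then HFD-fed Lama4 fl/fl, while HFD-fed Lama4 AKO was highest. No 2 neighbours in this order were separated, and no gene was free of overlap between diets or genotypes, where 0.213% of all genes were between diets in Lama4 fl/fl, 6.86% between diets in Lama4 AKO, 0.26% between genotypes on chow and 0.533% on HFD. The lowest mouse of chow-fed Lama4 fl/fl was replicate 1 for all 5 genes, of HFD-fed Lama4 fl/fl replicate 4, and of HFD-fed Lama4 AKO replicate 6. Each of these mice had the highest summed adipocyte markers of its group, 21800, 16300 and 6600 CPM. In chow-fed Lama4 AKO no 1 mouse was lowest throughout: it was replicate 1 for Itgax, Itgam and Itga4, replicate 3 for Itgb2 and replicate 2 for Itgal. The highest summed adipocyte markers of that group were in replicate 1, at 16300 CPM. The part of these markers in the integrin values was not tested. In bulk tissue, fewer leukocytes and less integrin transcript per leukocyte cannot be told apart. Mice of the same group spread widely: the within-group SD of log2 CPM was 1.09 for Itgax, 1.1 for Itgb2, 0.852 for Itgam, 0.892 for Itgal and 0.668 for Itga4, against a median of 0.373 over 12475 genes, and 83.8% to 97.1% of those genes spread less.

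The first comparison asked how HFD changed these transcripts in Lama4 fl/fl mice. Every estimate was positive and none passed the test, which was edgeR's quasi-likelihood test with the Benjamini-Hochberg adjustment over 15020 genes. To be called, a gene needed a 1.5-fold change, an unadjusted p no higher than 0.001, and 2 CPM or more as the mean of its higher group. None of the 5 genes was called, where 0.173% of all genes were. The log2 fold changes were 0.65 for Itgal (95% confidence interval -0.38 to 1.67, adjusted p = 0.708), 0.33 for Itgam (-0.56 to 1.22), 0.3 for Itga4 (-0.42 to 1.02), 0.2 for Itgax (-0.89 to 1.28) and 0.16 for Itgb2 (-0.97 to 1.29). The interval of Itgb2 covered both a fall and a rise of almost 1 log2 unit, so a change of that size was not detectable with this spread. No gene of the table reached an adjusted p of 0.05 here, and 1354 had an unadjusted p under 0.05.

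In the libraries labelled Lama4 AKO, HFD went with higher Itgax, Itgb2 and Itgam, though short of the call. Itgax was 3.02-fold higher on HFD (log2 fold change 1.59 ± 0.537 SE, adjusted p = 0.0389, edgeR) and Itgb2 2.92-fold higher (1.54 ± 0.559, adjusted p = 0.0495). Itgam was 2.25-fold higher (1.17 ± 0.438) and missed an adjusted p of 0.05, at 0.0554. Itga4, at 0.41 ± 0.35, and Itgal, at 0.12 ± 0.496, had intervals across 0, with adjusted p of 0.384 and 0.869 in the same fit. None of the 5 was called, against 4.12% of all genes, and 2 of 5 had an adjusted p of at most 0.05, against 22.1%. Single mice decided this count. Over the fits that each left out 1 mouse, the adjusted p from edgeR ranged from 0.0121 to 0.0928 for Itgax, from 0.0187 to 0.112 for Itgb2 and from 0.0169 to 0.125 for Itgam. None of the 5 had an adjusted p of at most 0.05 without any 1 of chow-fed Lama4 AKO replicates 1 to 4 or HFD-fed Lama4 AKO replicates 1 to 5. The count was 1 when replicate 2, 4, 5 or 6 of the chow-fed Lama4 fl/fl mice was left out, or HFD-fed Lama4 fl/fl replicate 3 or 5. It was 3, with Itgam, when the fit lacked chow-fed Lama4 fl/fl replicate 1, chow-fed Lama4 AKO replicate 5, HFD-fed Lama4 fl/fl replicate 1 or 4, or HFD-fed Lama4 AKO replicate 6. The number of all genes called moved as well in these fits, from 299 to 1169. The share of all genes with an adjusted p of at most 0.05 in each fit is not given here, so the swing is not particular to the integrin genes. With all 24 mice, 3 of 5 were higher at an unadjusted p under 0.05, where 18.2% of genes were higher and 21.6% lower. The median log2 fold change of the 5 was 1.17, with 0 as the median of all genes. Other cell markers moved along with these values. All 6 adipocyte markers were lower on HFD at p under 0.05 (median log2 fold change -1.34), as were all 5 endothelial markers (median -0.67), and all 7 markers of lipid-associated macrophages were higher (median 1.7), while 3 of 10 macrophage markers were. Summed adipocyte markers ranged from 4020 to 16300 CPM on chow and from 2560 to 6600 on HFD. The summed lipid-associated macrophage markers ranged from 1160 to 11600 and from 7770 to 18700, and the summed macrophage markers from 2600 to 9250 and from 7910 to 13300. The part of such a shift in tissue makeup in the integrin values was not tested.

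Averaged over both genotypes, the diet difference was 0.89 ± 0.374 for Itgax (log2 ± SE, adjusted p = 0.0945, edgeR), 0.75 ± 0.307 for Itgam (adjusted p = 0.0892) and 0.85 ± 0.389 for Itgb2 (adjusted p = 0.121). It was 0.39 ± 0.351 for Itgal and 0.36 ± 0.247 for Itga4, whose intervals crossed 0. None was called, against 2.25% of genes, and none had an adjusted p of at most 0.05, against 12.4%.

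Genotype was compared within each diet. On chow, estimates for the libraries labelled Lama4 AKO against Lama4 fl/fl were -0.61 for Itgax, -0.32 for Itgb2, -0.14 for Itgam, -0.02 for Itga4 and 0.52 for Itgal, all with intervals across 0 and adjusted p from 0.952 to 0.996. On HFD, Itgb2 was 1.06 ± 0.552 higher with the Lama4 AKO label (interval -0.08 to 2.2, adjusted p = 0.357, edgeR). The estimates for Itgax and Itgam were 0.78 (-0.3 to 1.87) and 0.7 (-0.19 to 1.6), and those for Itga4 and Itgal were 0.08 and -0.01. All 6 adipocyte markers had lower estimates on HFD with that label (median log2 fold change -1.01). At an unadjusted p under 0.05, 3 of them were lower, against 8.99% of all genes. The part of these markers in the integrin values was not tested. No integrin gene was called in either comparison, where 0.113% of genes were called on chow and 0.173% on HFD. No gene of the table had an adjusted p of at most 0.05 in either, and 878 genes on chow and 2227 on HFD had an unadjusted p under 0.05.

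Whether the diet response differed between genotypes was tested directly with the interaction term. The response in the libraries labelled Lama4 AKO exceeded that in Lama4 fl/fl by 1.4 ± 0.745 log2 units for Itgax (adjusted p = 0.354, edgeR) and by 1.38 ± 0.776 for Itgb2 (adjusted p = 0.37). The value was 0.84 ± 0.612 for Itgam, 0.11 ± 0.494 for Itga4 and -0.52 ± 0.701 for Itgal. None of the 5 was called, against 0.386% of genes, so a difference between the genotypes in the response of these genes was not shown. The comparisons share groups of mice, and their estimates are therefore tied to one another.

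**Figure D2:**
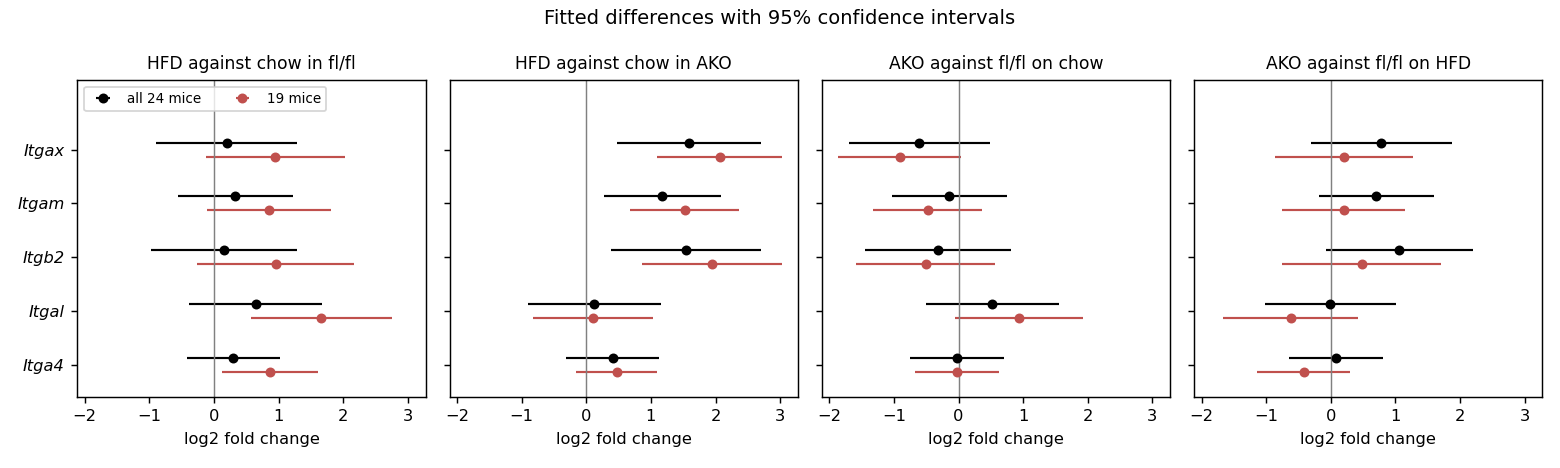
Log2 fold changes of the 5 genes (points) with 95% confidence intervals (bars) in 4 comparisons, for all 24 mice (black) and for 19 mice (red). In the libraries labelled Lama4 AKO the diet intervals of Itgax (0.48 to 2.7), Itgb2 (0.39 to 2.7) and Itgam (0.27 to 2.08) lie above 0 in all 24 mice, and in both genotype comparisons all intervals cross 0.

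The study set mice aside after a principal component analysis, and which ones is not given in the text used here. An earlier analysis of these data inferred that they were HFD-fed Lama4 fl/fl replicates 3, 4 and 6, chow-fed Lama4 fl/fl replicate 3 and chow-fed Lama4 AKO replicate 5. On the first principal component the 3 HFD-fed mice lay at -9.88, -76.1 and -60.4, and the other HFD-fed Lama4 fl/fl mice between 48.2 and 73.5. The 2 chow-fed mice lay at 46.8 and 22.1, and the other chow-fed mice between -91.8 and 6.18. Each mouse set aside thus lay toward the other diet than the rest of its group. The choice rests on the expression values themselves and widens the difference between diets, so what follows is no independent support, and HFD-fed Lama4 fl/fl mice are reduced to 3. In the remaining 19 mice, the diets differed by the same call rule for 11.8% of all genes in Lama4 fl/fl and for 15.7% in Lama4 AKO as labelled. Itgax was the 1 integrin gene called in the latter, 4.19-fold higher on HFD (log2 fold change 2.07 ± 0.46, adjusted p = 0.00223, edgeR). Itgb2 (1.94, adjusted p = 0.00681) and Itgam (1.53, adjusted p = 0.00638) fell just short of the unadjusted p required. In Lama4 fl/fl mice the leading estimate was Itgal, 3.16-fold higher (1.66 ± 0.522, adjusted p = 0.0232), which was not called, and that of Itgb2 was 0.96 ± 0.582. Averaged over genotypes, Itgax (1.51) and Itgam (1.19) were called, against 21.4% of genes. Within Lama4 AKO as labelled, 0 were called once chow-fed replicate 2 or 3 was dropped, and the number rose to 3 without chow-fed replicate 6, HFD-fed replicate 6 or chow-fed Lama4 fl/fl replicate 1. In the average it ranged from 0 without HFD-fed Lama4 fl/fl replicate 2 to 5 without chow-fed Lama4 AKO replicate 6, and in Lama4 fl/fl mice 1 gene was called without chow-fed Lama4 AKO replicate 6. The number of all genes called moved as well in these fits. It ranged from 1588 to 2960 within Lama4 AKO as labelled, from 2394 to 3743 in the average and from 818 to 1992 in Lama4 fl/fl mice. Between genotypes on HFD the estimates in the 19 mice were 0.48 for Itgb2, 0.2 for Itgax and 0.2 for Itgam, lower than in all 24, with intervals across 0. Itgal alone had an interaction with an unadjusted p under 0.05, of -1.56 ± 0.684 (adjusted p = 0.364, edgeR). Its diet estimate was 0.1 in the libraries labelled Lama4 AKO.

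Each gene was also expressed relative to a single leukocyte transcript, Ptprc, which encodes CD45, the antigen shared by nearly all leukocytes. Ptprc itself had medians of 245 CPM on chow and 250 on HFD in Lama4 fl/fl mice, and of 197 and 230 in those labelled Lama4 AKO. Of the 6 pan-leukocyte markers, Ptprc had the smallest diet estimate within Lama4 AKO as labelled, a log2 fold change of 0.12, against a median of 0.71 and a highest value of 1.17, and 2 of the 6 were higher at an unadjusted p under 0.05. The median of the 6 markers summed was 1260 CPM on chow and 2640 on HFD there. Values relative to Ptprc are therefore not relative to leukocyte markers as a whole. Relative to Ptprc, Itgax ranged from -1.63 to 0.12 log2 units in chow-fed (median -1.33) and from 0.18 to 0.96 in HFD-fed mice labelled Lama4 AKO (median 0.58). These 2 groups did not overlap, which was so for 2.11% of all genes relative to Ptprc. In Lama4 fl/fl mice the medians were -0.54 on either diet and the ranges overlapped (0.0133% of genes did not overlap there). The difference between diets in the libraries labelled Lama4 AKO was 1.66 ± 0.352 for Itgax (adjusted p = 0.0227, limma across 15019 genes), 1.53 ± 0.346 for Itgb2 (adjusted p = 0.0284) and 1 ± 0.289 for Itgam (adjusted p = 0.0905). Itga4 and Itgal, at 0.28 ± 0.259 and 0.14 ± 0.374, had intervals across 0. An adjusted p of at most 0.05 was thus met by 2 of the 5, against 0.906% of all genes. The count fell to 0 without any 1 of chow-fed Lama4 AKO replicates 1, 2 and 3 or HFD-fed Lama4 AKO replicates 1, 4 and 5, and to 1 without chow-fed Lama4 AKO replicate 4 or HFD-fed Lama4 AKO replicate 2. The estimates stayed between 1.55 and 1.89 for Itgax and between 1.37 and 1.75 for Itgb2 in these 24 fits. The share of all genes passing in each of these fits is not given here. In the 19 mice, 3 of 5 passed (Itgax, Itgb2 and Itgam), against 6.34% of genes. On HFD, the genotype difference relative to Ptprc was 1.06 ± 0.346 for Itgb2 and 0.93 ± 0.352 for Itgax, with an adjusted p of 1 for both in limma, and 0.00666% of all genes passed. Within Lama4 fl/fl mice no integrin gene passed the test relative to Ptprc between diets, with estimates from 0.12 to 0.55.

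**Figure D3:**
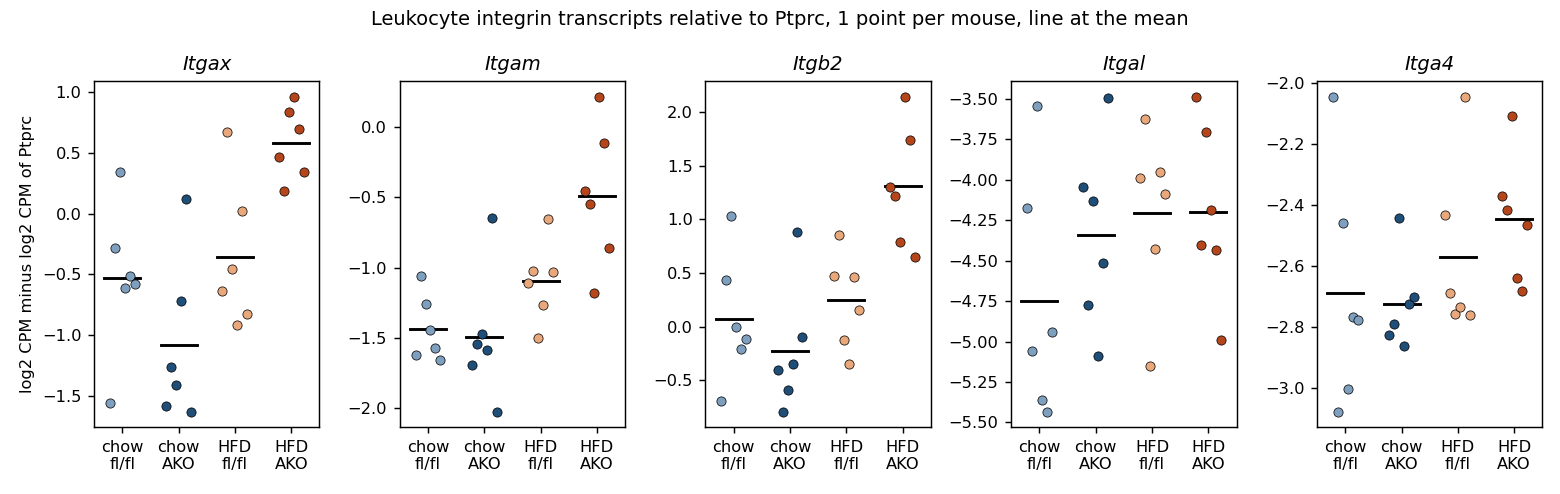
Log2 CPM of each leukocyte integrin gene minus that of Ptprc, 1 point per mouse and a line at the group mean (n = 6 each). For Itgax, all HFD-fed mice labelled Lama4 AKO (0.18 to 0.96) lie above all chow-fed ones (-1.63 to 0.12), and for the other 4 genes these groups overlap (Itgb2 up to 0.88 on chow and from 0.65 on HFD, Itgam up to -0.65 and from -1.18).

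The α subunits were also expressed relative to the shared subunit Itgb2. Between diets in the libraries labelled Lama4 AKO, Itgax and Itgam had intervals across 0, at 0.12 ± 0.406 and -0.53 ± 0.403. Itgal was -1.39 ± 0.491 (adjusted p = 0.0213, limma) and Itga4, whose partner is not β2, was -1.25 ± 0.481 (adjusted p = 0.0257). Of all genes, 80.5% passed the same test relative to Itgb2, so the 2 values are no result particular to αL and α4, and neither passed without chow-fed Lama4 AKO replicate 1 or 3 or HFD-fed Lama4 AKO replicate 4 or 5. Relative to Adgre1, which encodes the macrophage antigen F4/80, no integrin gene passed between diets in the libraries labelled Lama4 AKO: the estimates were 0.7 ± 0.355 for Itgax (adjusted p = 0.121, limma), 0.58 ± 0.379 for Itgb2, 0.05 ± 0.39 for Itgam, -0.68 ± 0.384 for Itga4 and -0.82 ± 0.458 for Itgal. An adjusted p of at most 0.05 was met by 0.0666% of genes there.

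Across mice, the 5 genes rose and fell together. With group means removed, all 10 pairs correlated over the 24 mice, from r = 0.668 (rho = 0.697) for Itgam with Itgal to r = 0.964 (rho = 0.939) for Itgam with Itgb2. The permutation p, drawn 100000 times within groups and adjusted over the 10 pairs, was 0.00141 for the former (rho: 0.00086) and 2.5e-05 for the latter (rho: 3.33e-05). The neighbours Itgam and Itgax gave r = 0.908 (rho = 0.857, permutation p = 1e-05 for either, the smallest that 100000 draws can give). Itgax with Itgb2 gave r = 0.937, whereas Itgax with Itgal gave 0.692. Without the 2 mice farthest from the median, which included HFD-fed Lama4 fl/fl replicate 4 in every pair and chow-fed Lama4 fl/fl replicate 1 in 8 pairs, Itgam with Itgb2 gave r = 0.934, Itgam with Itgax 0.826 and Itgam with Itgal 0.535 (permutation p = 0.0237). All 10 pairs still had an adjusted p of at most 0.05. Apart from Itgam with Itgb2, many other genes ran with the integrins as closely. Among 12474 other genes ranked by r, Itgb2 was at rank 3 for Itgam, and Itgam at rank 17 for Itgb2. For Itgax, Itgam was at rank 432 and Itgal at 1904, while Itgax was at 154 for Itgam. Of all genes, 9.51% exceeded r = 0.8 with Itgax and 7.64% with Itgam, so an r above 0.8 is not particular to the 5 genes or to neighbours. The points share library depth and scaling, and the part of the leukocyte share of the tissue in these correlations was not tested.

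The genes most like each integrin over the 24 mice, by Pearson's r of within-group deviations among 12474 other genes, differed by subunit, and are given as a description. For Itgax they were Myo1f (r = 0.988), Capg (0.987), Cdk6 (0.987), Kcnn4 (0.985) and Dpep2 (0.985). Myo1f encodes a leukocyte myosin and Capg an actin-capping protein of macrophages. For Itgb2 they were Wfs1 (0.985), Prkcd (0.982), Prkcb (0.976), Anxa4 (0.974) and Myo1g (0.974). Wfs1 also led for Itgam (0.97), before Mtpn (0.966), Itgb2 itself (0.964), Slc11a1 (0.963), a metal transporter of phagosomes, and Egr2 (0.959). For Itgal the leading gene was Trbc2 (0.94), a constant region of the T cell receptor β chain. It was followed by Icam1 (0.937), which encodes the main ligand of LFA-1, and by Batf (0.933), Il2rg (0.932), the common γ chain of interleukin receptors, and Parvg (0.931). For Itga4 they were Ipcef1 (0.959), Aim2 (0.957), Hlx (0.957), Naip5 (0.956) and Ebi3 (0.956).

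The marker lists also ranked the subunits differently. The median r over the 10 T cell markers was 0.89 for Itgal, against 0.608 for Itgax, 0.547 for Itgam and 0.648 for Itgb2. For Itga4 it was 0.843, below its medians with pan-leukocyte (0.897), mast cell (0.873) and macrophage markers (0.846). Mast cell markers gave medians from 0.799 to 0.873 for the 5 genes. Over the 7 markers of lipid-associated macrophages the median r was 0.959 for Itgax, 0.942 for Itgam and 0.917 for Itgb2, against 0.832 for Itga4 and 0.659 for Itgal. Pan-leukocyte markers came close to this for Itgax (0.923), Itgam (0.894) and Itgb2 (0.916), and gave 0.764 for Itgal. Dendritic cell markers gave medians from 0.45 for Itgam to 0.723 for Itgal, with 0.476 for Itgax. All 5 genes ran against adipocyte markers, with medians from -0.938 for Itgam to -0.753 for Itgal, and against endothelial markers, from -0.805 to -0.595. Neutrophil markers gave medians from 0.47 to 0.595 and were few, at 3 genes. Medians over all 12474 genes lay between -0.0148 and 0.00698, and 9.51% of genes exceeded r = 0.8 for Itgax but 3.18% for Itgal.

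**Figure D4:**
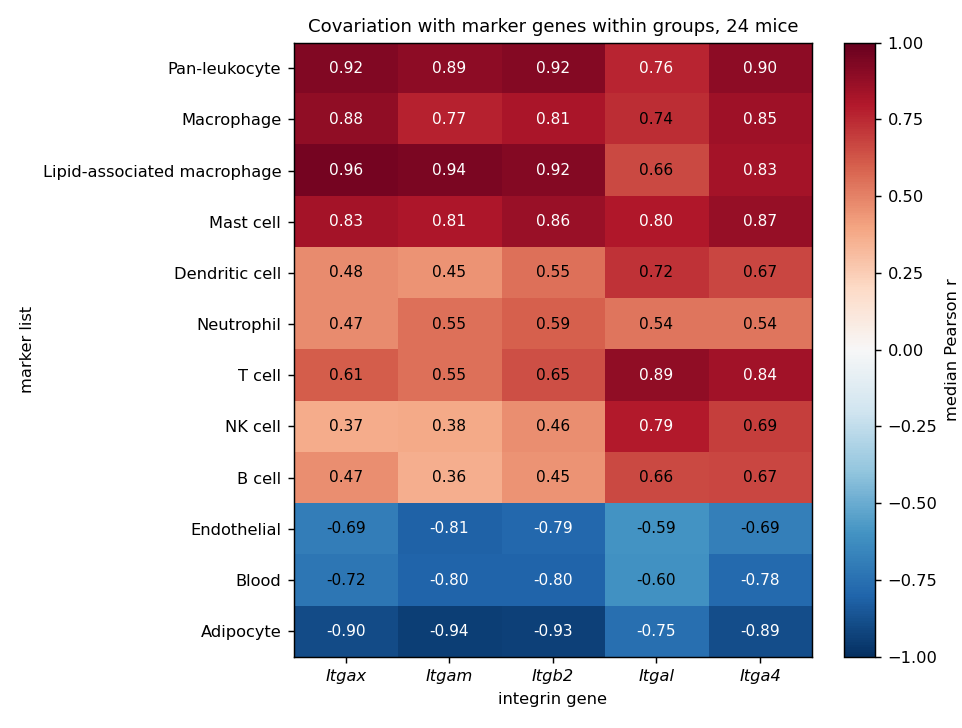
Median Pearson r, over the genes of each marker list (rows), between within-group deviations of log2 CPM of a marker and of an integrin gene (columns) in 24 mice, with red for positive and blue for negative values. Itgal is closest to T cell markers (0.89), Itgax to those of lipid-associated macrophages (0.96), and all columns are negative for adipocyte markers.

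Other integrin subunits found on leukocytes had estimates in both directions. Of 8 tested, none was called in any comparison. In the libraries labelled Lama4 AKO, 3 were higher and 3 lower on HFD at an unadjusted p under 0.05, against 18.2% and 21.6% of all genes. An adjusted p of at most 0.05 was met there by 5 of the 8, against 22.1% of all genes and 2 of the 5 leukocyte integrin genes above. The pair with the lowest p were Itga2b, the platelet and megakaryocyte αIIb subunit, which was 2-fold higher (log2 fold change 1 ± 0.281, adjusted p = 0.0233, edgeR), and Itga1, a collagen-receptor subunit, which was lower by -1.28 ± 0.375 (adjusted p = 0.0261). Itga2b lay between 6.73 and 8.31 CPM in all 6 HFD-fed mice labelled Lama4 AKO, against 2.43 to 4.61 in the chow-fed ones, with no overlap (6.86% of all genes did not overlap in this comparison). Among 11 tested subunits of other tissues, 6 had an adjusted p of at most 0.05 between diets within Lama4 AKO as labelled, against the same 22.1%. In that comparison 1 of the 11 was called, where 4.12% of all genes were called. This was Itga7, a laminin-binding subunit, which was lower on HFD, from a median of 157 CPM (84.2 to 291) to 56.7 (42.9 to 99.6), with a log2 fold change of -1.42 ± 0.316 (adjusted p = 0.0134, edgeR). In Lama4 fl/fl mice its estimate was -0.11 ± 0.31 and its interaction -1.3 ± 0.441 (adjusted p = 0.246). Itga11, an α subunit of collagen receptors on stromal cells, was called higher on HFD in the average over genotypes (0.82, adjusted p = 0.0232, edgeR), where 2.25% of all genes were called.

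Of 15 tested ligands and counter-receptors, 1 was called higher on HFD within Lama4 AKO as labelled, where 4.12% of all genes were called. This was Fn1, fibronectin, a ligand of VLA-4, with a median of 371 CPM (267 to 521) on chow and 679 (547 to 853) on HFD, without overlap (6.86% of all genes). Its log2 fold change was 0.9 ± 0.237 (adjusted p = 0.0207, edgeR). In Lama4 fl/fl mice Fn1 was at 330 (256 to 541) and 491 (284 to 793), a difference of 0.59 ± 0.236 that was not called. The list as a whole had 4 higher and 2 lower at an unadjusted p under 0.05 in the libraries labelled Lama4 AKO, against 18.2% and 21.6% of all genes, and a median log2 fold change of 0.38, with 0 for all genes. Icam1, the ligand that ran with Itgal, was at 21.7 CPM (16.1 to 46.2) on chow and 43.2 (31.6 to 54.9) on HFD in these libraries, with a log2 fold change of 0.71 ± 0.304 that was not called (adjusted p = 0.0855).

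The 15 genes of inside-out activation, which prepare integrins for binding, held no called gene. In the libraries labelled Lama4 AKO 6 were higher and 1 lower on HFD at an unadjusted p under 0.05, against 18.2% and 21.6% of all genes. The lowest p was that of Skap2, an adaptor of integrin activation in myeloid cells, at 1.14 ± 0.344 (adjusted p = 0.0279, edgeR), followed by Tln1, talin, at 0.6 ± 0.219 (adjusted p = 0.0519). Of 15 genes of outside-in signalling none was called and 6 were higher at an unadjusted p under 0.05, against the same 18.2%, with a median log2 fold change of 0.89. Their lowest p were those of Pik3cg, a phosphoinositide kinase of leukocytes (0.89 ± 0.313, adjusted p = 0.0445), and Syk, the kinase recruited by engaged β2 integrins (0.96 ± 0.354, adjusted p = 0.0522). Of 11 myeloid and lymphoid transcription factors 1 was called within Lama4 AKO as labelled, where 4.12% of all genes were called. At an unadjusted p under 0.05, 1 was higher and 2 lower on HFD, against 18.2% and 21.6% of all genes. Only 4 of the 11 had positive estimates, and the list's median log2 fold change was -0.25. The called gene was Myb, higher on HFD (2.06 ± 0.531, adjusted p = 0.019, edgeR), from a median of 0.736 CPM (0.269 to 2.29) to 4.12 (1.79 to 6.07). Its level in Lama4 fl/fl mice was 0.918 (0.412 to 1.72) on chow and 2.83 (0.743 to 7.59) on HFD, a difference of 1.68 ± 0.518 that was not called. No gene of leukocyte rolling among 5 tested was called, with the lowest p between diets within Lama4 AKO as labelled for Selplg (0.53 ± 0.35, adjusted p = 0.26). In the same libraries 4 of 5 mast cell markers were called higher, against 4.12% of all genes called, with a median log2 fold change of 3.36 over the list, and summed mast cell markers ranged from 36.6 to 420 CPM on chow and from 591 to 1940 on HFD. Apart from the genes named, no gene of these pathway lists was called between diets, genotypes or in the interaction.

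**Figure D5:**
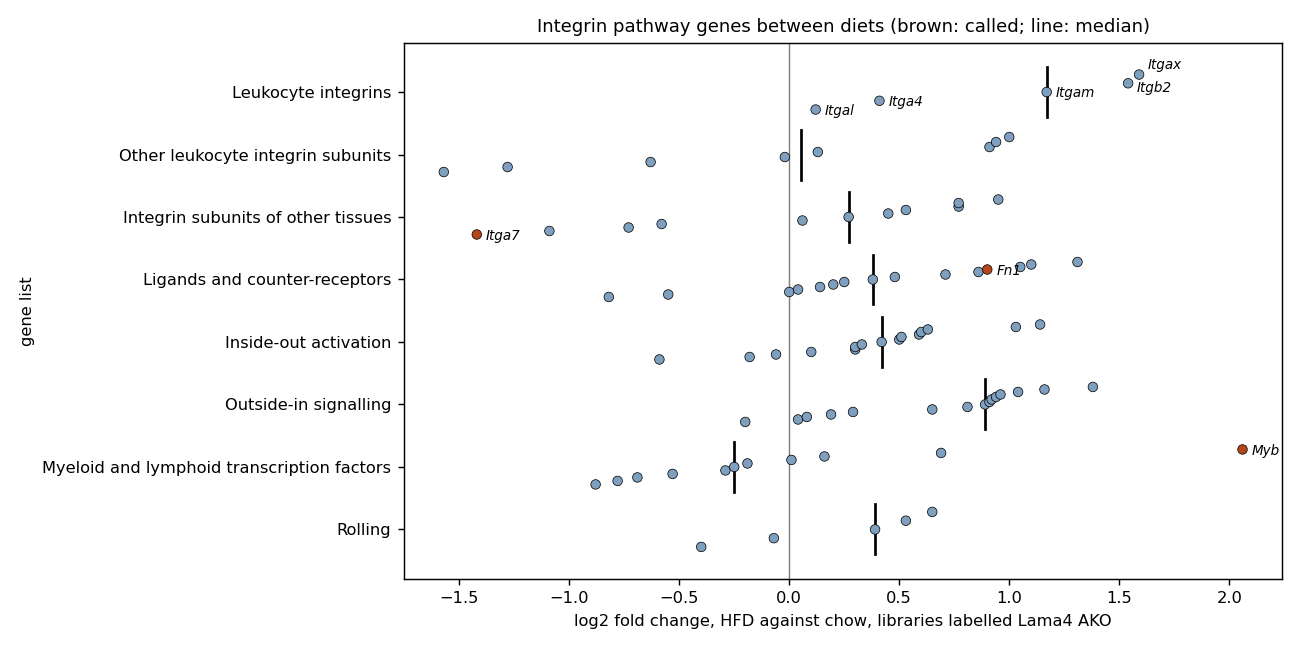
Log2 fold changes on HFD against chow in the libraries labelled Lama4 AKO for the leukocyte integrins and 7 lists of related genes, 1 point per gene, brown where called and with a line at the list's median. Called genes are Myb (2.06), Fn1 (0.9) and Itga7 (-1.42), and the medians of the leukocyte integrins (1.17) and of outside-in signalling (0.89) lie farthest to the right.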

How the data were processed

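Bulk 3′ RNA sequencing (QuantSeq) was made from eWAT of 24 mice, 6 per group. The authors deposited raw counts per gene, mapped and counted in the Lexogen QuantSeq pipeline from forward reads of 50 bases, and a signal table of the same counts divided by 1 size factor per library (DESeq2 1.30 in R 4.0.3, per the labels). The signal table served for gene annotation and as a check of the counts, and all values here come from the counts.

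Counts were analysed with edgeR 4.0.16 in R 4.3.3: genes reaching 1 CPM in 3 or more mice (15020 of 16730) were kept, scaled by TMM and fitted with 1 coefficient per group over all 24 mice. Log2 CPM used a prior count of 2. Values relative to Ptprc, Itgb2 or Adgre1 were tested with limma 3.58.1 on log2 CPM differences. DESeq2 1.42.0, limma-voom, other filters, scalings and sets of mice were alternatives. The script was tested on simulated data. The genes, lists and tests were chosen with earlier results of these data known, so the lists are not independent evidence. The text names all 5 genes, and from each pathway list at most 4 called genes with the lowest p, or at most 2 with the lowest p where none was called. Icam1 was added after its values were seen. Likeness lists hold the top 5 genes. Intervals and p-values cover the spread between mice. The 24 libraries held 5579590 to 18764516 counts, and no 2 libraries of a group agreed within sampling noise.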

Additional observations from a re-analysis of the deposited data

Results flagged for a closer look

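In chow-fed Lama4 fl/fl mice, replicate 1 lay far below its group for 4 of the 5 genes on the log2 CPM scale: Itgax was 4.404 with the nearest other mouse at 7.325, Itgb2 was 5.271 with the nearest at 7.772, Itgam was 4.34 with the nearest at 6.244, and Itga4 was 3.916 with the nearest at 5.026. For Itgal, chow-fed Lama4 AKO replicate 6 lay far above its group, at 5.197 with the nearest other mouse at 3.513. In each case the gap to the nearest mouse took up more of the group's range than Dixon's 95% critical value for 6 samples (0.625). Of the 20 sets of values examined, 5 were outside it, where chance gives about 1 in 20, and 4 of the 5 are the same mouse. Without chow-fed Lama4 fl/fl replicate 1 or chow-fed Lama4 AKO replicate 6, none of the 5 genes was called in any comparison of the remaining mice (edgeR).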

How the results depend on the processing

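With all 24 mice, none of the 5 genes was called in any comparison under limma-voom, DESeq2, RLE factors, no low-count filter, filterByExpr, only the compared groups, no fold criterion, or without any 1 mouse. Voom with sample quality weights called 3 (23.9% of all genes) between diets in AKO and 2 (9.04%) in the interaction. An adjusted p of at most 0.05 called 2 (16.1%) in the former. The 19 mice gave 1 (15.7%) there and 2 (21.4%) in the diet average. Relative to Ptprc and Itgb2 they gave 3 and 1 in that average. The shares of all genes for these last 2 counts are not given here, so they are no result about the 5 genes. The causes were not tested.

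Some estimates that were not called changed sign. With quality weights the fl/fl diet values were -0.35 (Itgax), -0.11 (Itgam), -0.3 (Itgb2) and -0.18 (Itga4), and Itgal was 0.63 between genotypes on HFD and 0.45 in the interaction. Limma-voom gave 0.14 for Itgal on HFD. In the 19 mice Itga4 was -0.42 on HFD and -0.4 in the interaction. Relative to Ptprc, Itga4 was 0.01 on chow, -0.06 on HFD and -0.07 in the interaction, and Itgal -0.35 on HFD. Relative to Itgb2, Itgam was -0.17 between diets in fl/fl. Relative to Adgre1, Itgam and Itga4 were -0.1 and -0.29 there, and Itgam 0.2 in the interaction.

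Leaving out 1 mouse from the 24 or the 19 (the latter added after the data were seen), counts called ranged from 0 to 1 between diets in fl/fl, 0 to 3 in AKO and 0 to 5 in the average. Counts of all genes called in these comparisons were 14 to 63, 299 to 1169 and 204 to 691 from the 24. From the 19 they were 818 to 1992, 1588 to 2960 and 2394 to 3743. Between diets in fl/fl, Itgax ranged from -0.15 to 1.22 and Itgb2 from -0.11 to 1.31, and in AKO Itgal from -0.07 to 1.05. Between genotypes on chow, Itgam ranged from -0.73 to 0.1, Itgal from -0.23 to 1.12 and Itga4 from -0.46 to 0.14. On HFD they ranged from -0.01 to 0.92, -0.81 to 0.28 and -0.61 to 0.35. In the interaction Itgal ranged from -1.77 to 0.19 and Itga4 from -0.59 to 0.39.

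Relative to Ptprc (24 mice, added after the data were seen), counts ranged from 0 to 3 between diets in AKO and 0 to 1 in the average, Itgax from -0.03 to 0.35 between diets in fl/fl, Itgal from -0.01 to 0.31 in AKO, Itgam from -0.23 to 0.05 and Itga4 from -0.11 to 0.09 on chow, and Itgal from -0.18 to 0.16 on HFD. Relative to Itgb2, counts ranged from 0 to 2 between diets in AKO and in the interaction. Itgax ranged from -0.08 to 0.11 and Itga4 from -0.2 to 0.23 between diets in fl/fl, and Itgax from -0.03 to 0.22 in AKO, -0.01 to 0.12 in the average and -0.04 to 0.22 in the interaction. Relative to Adgre1, Itgax ranged from -0.09 to 0.21, Itgb2 from -0.03 to 0.18 and Itga4 from -0.11 to 0.29 between diets in fl/fl, and Itgam from -0.11 to 0.24 in AKO. The shares of all genes passing in these fits are not given here. The counts relative to Ptprc and Itgb2 are therefore no result about the integrin genes. With all 24 mice, 0.906% of genes passed relative to Ptprc and 80.5% relative to Itgb2 between diets in AKO.

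The replicate numbers did not pair the mice: 15 of 36 same-numbered pairs had a correlation over 0.1 (-0.534 to 0.714). With the replicate number as a block 0 of the 5 genes were called and Itgal was 0.08 between genotypes on HFD. Counts of all genes called, 26, 619 and 338 between diets in fl/fl, AKO and the average, 17 and 26 between genotypes on chow and HFD and 58 in the interaction, became with the block 19, 457, 254, 10, 19 and 32, with DESeq2 60, 1315, 632, 41, 81 and 148, with quality weights 37, 3594, 917, 289, 525 and 1358, and in the 19 mice 1750, 2332, 3186, 31, 84 and 101. At an adjusted p of at most 0.05 they were 0, 2422, 905, 0, 0 and 1. Fits of only the compared groups gave 11, 1388, 9 and 25. Itgal, with as few as 32 counts, is limited most by depth.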
